A study of Mus musculus with 12 samples.

Results

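The mitochondrially encoded transcripts are the genes of the mouse mitochondrial chromosome, chosen here by name as all genes whose symbol begins with mt-. They are 37 of the 54532 genes in the deposited tables and comprise 13 protein-coding genes, 2 ribosomal RNA (rRNA) genes and 22 transfer RNA (tRNA) genes. The study sequenced small intestine RNA of C57BL/6J mice, with 4 groups of 3 libraries. The label CKO stands for a knockout of Piezo1, a mechanically gated cation channel, in the intestinal epithelium, and flox for controls that carry the floxed allele. The groups were CKO mice with necrotizing enterocolitis (CKO NEC), flox mice with necrotizing enterocolitis (flox NEC), CKO mice without injury (CKO control) and flox mice without injury (flox control). Necrotizing enterocolitis is an inflammatory necrosis of the bowel. The sources used here do not state the Cre driver, the mice's age or how the disease was induced. They also do not state that each library is a different mouse, so p-values measure the spread between libraries, which may be technical.

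The mitochondrial chromosome is a compact circle that is transcribed from both strands into long RNAs, which are then cut into messengers and rRNAs, largely at the tRNAs that lie between them. The messengers encode core subunits of respiratory complexes I, III and IV and of the ATP synthase, while all other subunits, the polymerase and the processing factors are made from nuclear genes. Absorptive enterocytes of the small intestine are rich in mitochondria, which supply the ATP for nutrient uptake.

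The values are FPKM, a read number scaled to gene length and library size, in a separate table for each condition. Condition and table are thus the same split, so a difference in how the 2 sets of libraries were handled cannot be told apart from NEC. The product of FPKM and gene length came in equal steps within a library, so the read number of each gene could be recovered. The total was 13057724 to 16821130 reads per library. The library size that the FPKM imply was 0.853 to 1.06 times this total, so the deposited values were not scaled to the recovered total alone. The 2 tables were scaled differently, with NEC values on average 0.14 higher on the log2 scale than a joint scaling gives, so genotypes were compared within a table, and NEC was compared with control only on shares of reads or on FPKM recomputed with size factors from all 12 libraries (rescaled FPKM). Tissue markers were present throughout: Fabp2, an intestinal fatty acid binding protein, stood at 611 to 2237 FPKM, Vil1, the microvillus protein villin, at 274 to 441 FPKM and Epcam, an epithelial adhesion molecule, at 513 to 1716 FPKM. Piezo1 itself averaged 4.73 ± 1.30 FPKM in CKO NEC and 7.12 ± 0.326 FPKM in flox NEC, and 1.22 ± 0.427 FPKM in CKO control against 1.30 ± 0.190 FPKM in flox control (SD, n = 3 each). The CKO control and flox control ranges overlapped, so Piezo1 RNA does not show the knockout in the control groups. The tissue also holds cells outside the epithelium, and their part in these values was not tested.

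A few sequences show what the gene models contain. All are from GENCODE M21 transcripts on GRCm38, whose start, end and strand were identical to those of all 37 mitochondrial genes in the tables. The gene mt-Atp8, for a small subunit of the ATP synthase membrane sector, is printed because it had the fewest reads of the protein-coding genes. The 43 bases that mt-Atp8 shares with mt-Atp6 are in capitals. mt-Atp8 spans positions 7766 to 7969 of chromosome MT on the plus strand. The tRNAs for proline (mt-Tp), cysteine (mt-Tc) and asparagine (mt-Tn), all on the minus strand, and threonine (mt-Tt), on the plus strand, are printed with the anticodon in capitals because mt-Tp and mt-Tt lie side by side on opposite strands and had very different read numbers. The last 4 lines give the first 30 bases of mt-Co2 and mt-Nd3 and of their copies on chromosome 1, with the only base that differs between mt-Nd3 and its copy in capitals.
mt-Atp8: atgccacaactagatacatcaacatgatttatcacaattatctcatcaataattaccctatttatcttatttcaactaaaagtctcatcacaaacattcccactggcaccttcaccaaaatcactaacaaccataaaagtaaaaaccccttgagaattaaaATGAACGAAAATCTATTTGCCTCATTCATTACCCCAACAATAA
mt-Tp: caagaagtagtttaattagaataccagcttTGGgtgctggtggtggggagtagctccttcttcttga
mt-Tt: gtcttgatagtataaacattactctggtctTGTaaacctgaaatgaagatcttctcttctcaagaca
mt-Tc: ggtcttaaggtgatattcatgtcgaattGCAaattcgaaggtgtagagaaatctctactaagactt
mt-Tn: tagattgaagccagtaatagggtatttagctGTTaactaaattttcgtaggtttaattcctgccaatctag
mt-Co2: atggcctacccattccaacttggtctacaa
Gm28661: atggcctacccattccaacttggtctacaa
mt-Nd3: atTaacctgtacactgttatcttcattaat
Gm28438: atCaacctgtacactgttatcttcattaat

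Mitochondrial genes took a smaller share of the reads in every NEC library than in any control library, and among uninjured mice a smaller share in every CKO library than in any flox library. Their share of all reads was 4.43%, 3.47% and 4.37% in CKO NEC, 4.52%, 3.83% and 3.80% in flox NEC, 6.24%, 6.76% and 5.11% in CKO control, and 14.3%, 11.1% and 13.04% in flox control. All 3 flox control libraries lay above all 9 others, the 3 CKO control libraries lay above all 6 NEC libraries, and the 2 NEC groups overlapped. The share averaged 4.09% ± 0.538 in CKO NEC, 4.05% ± 0.407 in flox NEC, 6.03% ± 0.843 in CKO control and 12.8% ± 1.62 in flox control (SD, n = 3 each). In control, the CKO share was 0.472 of the flox share (exact two-sided permutation test, p = 0.10, adjusted over 5 comparisons 0.125). In NEC, CKO stood at 1.01 times flox (p = 1 by the same exact test, adjusted p = 1). NEC stood at 0.317 of control in flox and at 0.677 of control in CKO (exact p = 0.10 and adjusted 0.125 in each). With 3 libraries against 3, 0.10 is the smallest p this test can give. Over both genotypes, with labels exchanged within genotype, NEC averaged 4.07% ± 0.427 and control 9.42% ± 3.88 (SD, n = 6 each, exact p = 0.005, the smallest it can give, adjusted 0.025). In whole tissue, fewer mitochondria-rich cells and less mitochondrial RNA per cell cannot be told apart.

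**Figure D1:**
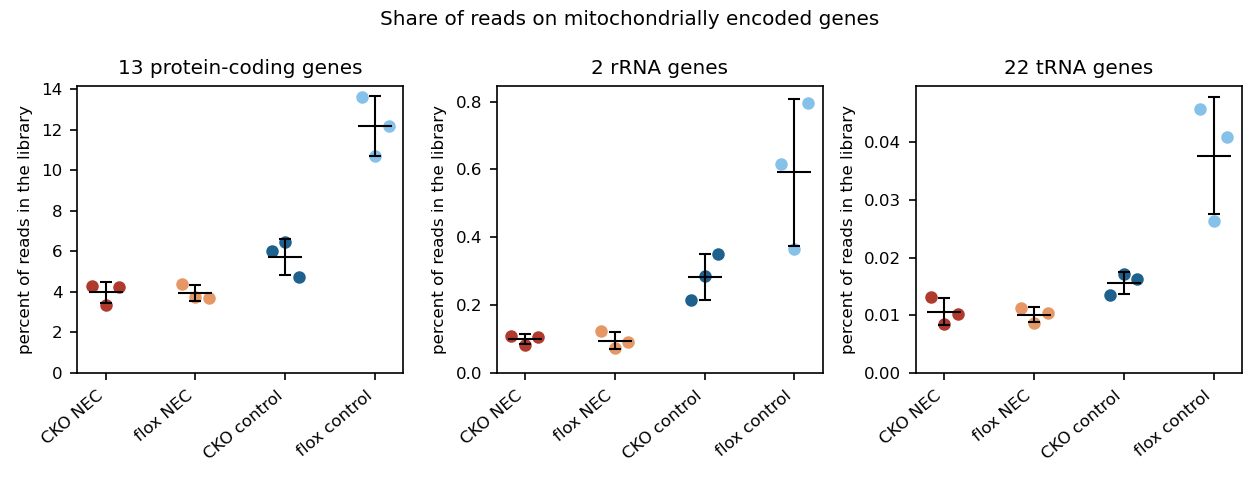
Percent of a library's reads on the 13 protein-coding, 2 rRNA and 22 tRNA genes of the mitochondrial chromosome, for CKO NEC, flox NEC, CKO control and flox control. Each point is a library, and the black bar and whiskers are the mean and SD of 3 libraries; in all 3 panels the flox control libraries are the highest and the 2 NEC groups overlap.

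The 3 kinds of gene shared that order of groups but not its size. Protein-coding genes took 3.98% ± 0.521 of reads in CKO NEC, 3.95% ± 0.382 in flox NEC, 5.74% ± 0.888 in CKO control and 12.2% ± 1.47 in flox control. rRNA genes took 0.0995% ± 0.0154 in CKO NEC, 0.0958% ± 0.0256 in flox NEC, 0.283% ± 0.0676 in CKO control and 0.592% ± 0.217 in flox control (SD, n = 3 each). The rRNA share in NEC was therefore 0.162 of control in flox and 0.352 in CKO, against 0.324 and 0.693 for the protein-coding genes. tRNA genes took 0.0106% ± 0.00231 in CKO NEC, 0.0101% ± 0.00127 in flox NEC, 0.0156% ± 0.00192 in CKO control and 0.0376% ± 0.0101 in flox control (SD, n = 3 each), which put NEC at 0.269 of control in flox and at 0.680 in CKO. These ratios were not tested against each other.

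By respiratory complex, the messengers of complex I took 1.58% of reads in CKO NEC, 1.61% in flox NEC, 2.22% in CKO control and 4.71% in flox control. Those of complex IV took 1.85% in CKO NEC, 1.81% in flox NEC, 2.69% in CKO control and 5.72% in flox control. mt-Cytb, the only complex III gene among them, took 0.516% in CKO NEC, 0.504% in flox NEC, 0.798% in CKO control and 1.65% in flox control. For all 3 complexes CKO control stood at 0.471 to 0.484 of flox control. The pair of ATP synthase genes, mt-Atp6 and mt-Atp8, took 0.0348% in CKO NEC, 0.0257% in flox NEC, 0.0274% in CKO control and 0.0910% in flox control. By library they took 0.0569%, 0.0169% and 0.0306% in CKO NEC and 0.0222%, 0.0286% and 0.0313% in CKO control, and the groups overlapped (exact two-sided permutation test, p = 0.80). CKO NEC library 1 was the highest of these 6. Flox NEC was 0.283 of flox control (exact p = 0.10).

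In uninjured mice, all 13 protein-coding genes had lower fitted levels in CKO than in flox, by 0.86 to 1.62 on the log2(FPKM + 1) scale, and none passed the threshold. mt-Co1, the catalytic core of cytochrome c oxidase and the most abundant mitochondrial messenger, had 19112, 21616 and 15245 FPKM in CKO control against 41148, 30764 and 40162 FPKM in flox control. The groups did not overlap, and the fitted difference was -1.004 ± 0.28 (SE; adjusted p = 0.0795, limma with Benjamini-Hochberg adjustment over all genes tested, threshold 0.05). For mt-Nd1, a complex I subunit of the membrane arm, the values were 8724, 9153 and 8886 FPKM in CKO control and 19818, 13885 and 19890 FPKM in flox control. Again every CKO library was below every flox library (-0.98 ± 0.24, limma adjusted p = 0.0690). mt-Cytb, the cytochrome b of complex III, had 8011, 8208 and 6971 FPKM in CKO control and 16347, 13153 and 15726 FPKM in flox control (-0.96 ± 0.22, limma adjusted p = 0.0640). mt-Atp6, the proton channel subunit of the ATP synthase, had 345, 462 and 538 FPKM in CKO control and 1464, 948 and 1806 FPKM in flox control. Its difference was the furthest from 0 among the 13 (-1.62 ± 0.28, limma adjusted p = 0.0547).

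The other protein-coding genes stood in the same direction. Their fitted differences were -1.03 ± 0.20 for mt-Nd2, -0.89 ± 0.27 for mt-Nd3, -1.01 ± 0.19 for mt-Nd4, -1.28 ± 0.26 for mt-Nd4l, -1.004 ± 0.23 for mt-Nd5 and -0.94 ± 0.23 for mt-Nd6 among the subunits of complex I. Among those of complex IV they were -1.30 ± 0.24 for mt-Co2, which carries the copper site that receives electrons from cytochrome c, and -0.86 ± 0.35 for mt-Co3. For mt-Atp8 it was -1.38 ± 0.39 on 9 to 23 reads in CKO control and 24 to 55 reads in flox control. The groups did not overlap for 12 of the 13 genes, mt-Co3 being the exception. Of all genes tested, 12.7% were lower in CKO without overlap. The adjusted p of the 13 ran between 0.0547 and 0.159. By this test 0 of 13 passed, where 1 of 13300 genes tested passed (0.00752%), while all 13 had an unadjusted p under 0.05, as did 28.9% of all genes tested. The median difference of the 13 was -1.004, against 0.04 over all genes tested. The count of genes past the threshold turned on the model: 10 of 13 passed with limma-voom on the recovered reads, 11 when all 4 groups were fitted together and 10 when only genes with a mean FPKM of at least 5 were tested, all of them lower in CKO. It was 2 without flox control library 3. The share of all genes that passed in these settings is not given here, so these counts have no background beside them.

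The 2 rRNAs of the mitochondrial ribosome lay lower in CKO control with overlap between the groups. mt-Rnr1, the small subunit rRNA, had 722, 899 and 1196 FPKM in CKO control and 1827, 1125 and 2669 FPKM in flox control (-0.94 ± 0.34, limma adjusted p = 0.131). mt-Rnr2, the large subunit rRNA, had 1003, 1454 and 1867 FPKM in CKO control and 2861, 1613 and 4041 FPKM in flox control (-0.93 ± 0.38, limma adjusted p = 0.163). Flox control library 2 was the lowest of its group for both rRNAs and CKO control library 3 the highest of its group.

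With NEC, the genotypes were close. mt-Co1 had 11437, 9418 and 13375 FPKM in CKO NEC against 11666, 10868 and 10696 FPKM in flox NEC, a fitted difference of 0.03 with a 95% interval from -0.72 to 0.77. mt-Nd1 had 7726, 5470 and 7573 FPKM in CKO NEC and 7241, 6378 and 5980 FPKM in flox NEC, a fitted difference of 0.07 with an interval from -0.61 to 0.76. For both, 1 CKO library lay below all flox libraries and the others lay among or above them. For mt-Cytb the difference was 0.05 with an interval from -0.55 to 0.64, and for mt-Nd4 0.02 with an interval from -0.51 to 0.54. The lowest fitted difference among the 13 was -0.51 ± 0.27 for mt-Atp8, and the highest was 0.77 ± 0.51 for mt-Co3, with 446, 167 and 607 FPKM in CKO NEC and 347, 158 and 164 FPKM in flox NEC. Of the 13 genes 0 passed by limma (limma-voom on recovered reads: 0), 0 had an unadjusted p under 0.05, where 4.38% of all genes tested did, and 0 of 13673 genes tested passed (0.0%). None of the 13 was lower in CKO NEC without overlap, where 6.14% of all genes tested were. The median difference of the 13 was 0.05 and that of all genes tested 0.01.

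The difference between the 2 genotype effects, CKO against flox in NEC less CKO against flox in control, was above 0 for all 13 protein-coding genes, and none passed. The 13 lay between 0.84 and 1.94 on the log2 scale with a median of 1.03, against -0.02 over all 14808 genes tested. mt-Co2 had the smallest adjusted p among them (1.45 ± 0.36, limma adjusted p = 0.0641), followed by mt-Nd4 (1.03 ± 0.27, limma adjusted p = 0.0762). mt-Co1 stood at 1.03 ± 0.38 with an interval from 0.20 to 1.87, and mt-Atp8 at 0.87 ± 0.53 with an interval from -0.29 to 2.03. By limma 0 of 13 passed and 11 had an unadjusted p under 0.05 (limma-voom: 0 passed), where 20.8% of all genes tested did, while 181 of all genes tested passed (1.22%, with 0.209% above 0 and 1.01% below 0). Among the 2 rRNAs mt-Rnr1 stood at 1.38 ± 0.42 (limma adjusted p = 0.0988) and mt-Rnr2 at 0.91 ± 0.49 (limma adjusted p = 0.324). With only genes of a mean FPKM of at least 5 tested, 5 of the 13 passed, all above 0 (share of all genes not given here).

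**Figure D2:**
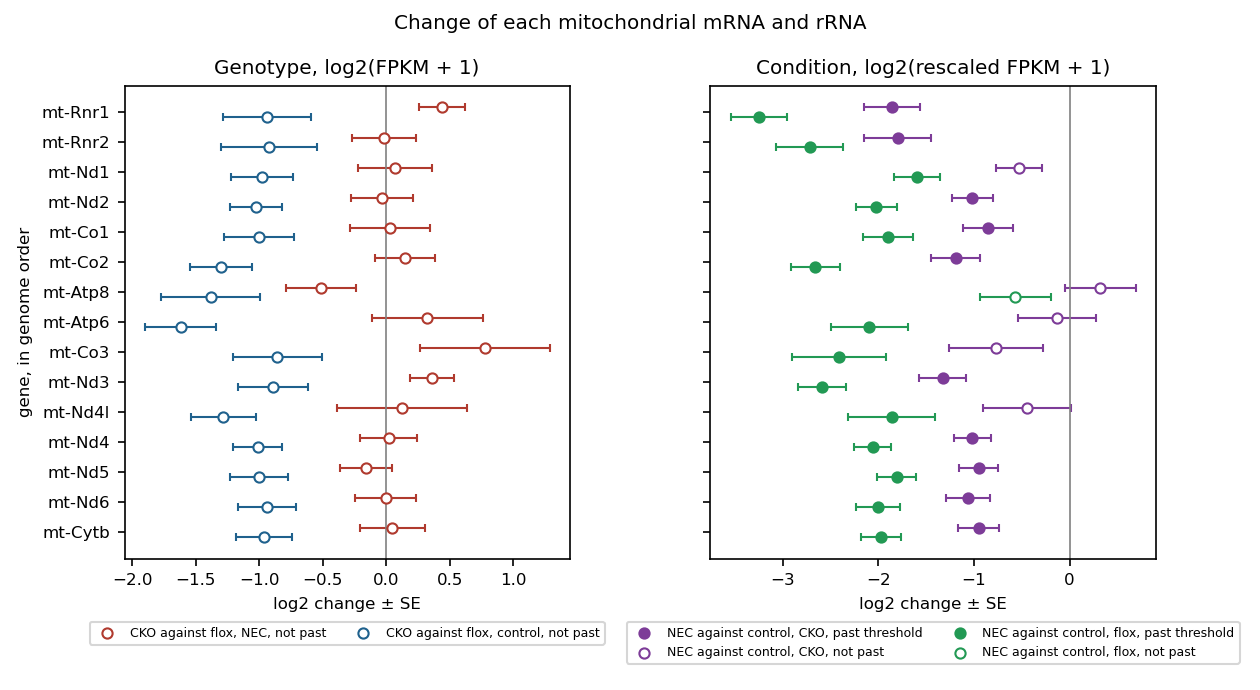
Log2 difference with its SE for each mitochondrial messenger and rRNA, in genome order from top to bottom: left, CKO against flox in NEC and in control on log2(FPKM + 1), and right, NEC against control in CKO and in flox on log2(rescaled FPKM + 1). Filled points are past an adjusted p of 0.05, the control genotype points lie between -1.62 and -0.86, the NEC genotype points lie between -0.51 and 0.77, and the flox NEC points lie to the left of the CKO NEC points.

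With NEC, messengers of all 4 complexes fell in flox mice. On rescaled FPKM, 12 of the 13 protein-coding genes fell, where 26.5% of all genes tested fell and 27.2% rose, and the median of the 13 was -2.01 against 0.00 over all genes tested. With quantile normalization 5 of the 13 passed (share of all genes not given here) and the median was -0.34. mt-Co1 had 10469, 9811 and 9684 rescaled FPKM in flox NEC against 41383, 30976 and 40389 in flox control (-1.90 ± 0.26, limma adjusted p = 0.000145). mt-Cytb had 4227, 3722 and 3605 rescaled FPKM in flox NEC against 16440, 13244 and 15815 in flox control (-1.97 ± 0.21, limma adjusted p = 3.11e-05). For both, the highest NEC library was below the lowest control library. mt-Co2 fell the most of the 13 (-2.66 ± 0.25) and mt-Nd1 the least of the 12 (-1.59 ± 0.24, limma adjusted p = 0.000270). The other complex I genes stood at -2.02 for mt-Nd2, -2.59 for mt-Nd3, -2.06 for mt-Nd4, -1.86 for mt-Nd4l, -1.81 for mt-Nd5 and -2.01 for mt-Nd6, and all 6 passed. mt-Co3 stood at -2.42 and mt-Atp6 at -2.09. The groups did not overlap for these 12 genes, where 30.9% of all genes tested were lower in NEC without overlap. mt-Atp8 did not pass, with 34, 34 and 15 reads in flox NEC and 41, 24 and 55 reads in flox control (-0.57 ± 0.37, limma adjusted p = 0.216).

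In CKO mice 8 of the 13 fell with NEC, where 23.0% of all genes tested fell and 20.2% rose, and the median of the 13 was -0.95 against -0.01 over all genes tested. mt-Co1 had 10359, 8498 and 12349 rescaled FPKM in CKO NEC against 19223, 21722 and 15368 in CKO control (-0.85 ± 0.26, limma adjusted p = 0.0224). mt-Nd3 fell the most (-1.33 ± 0.25), and mt-Nd2, mt-Co2, mt-Nd4, mt-Nd5, mt-Nd6 and mt-Cytb had differences between -1.19 and -0.95. Of the 5 that did not pass, mt-Nd1 had 6998, 4935 and 6992 rescaled FPKM in CKO NEC and 8774, 9197 and 8958 in CKO control (-0.53 ± 0.24, limma adjusted p = 0.101), with no overlap between the groups. Of all genes tested, 27.3% were lower in CKO NEC without overlap. mt-Co3 stood at -0.77 ± 0.49 (limma adjusted p = 0.227), mt-Nd4l at -0.44 ± 0.46 (adjusted p = 0.461), mt-Atp6 at -0.14 ± 0.41 (adjusted p = 0.810) and mt-Atp8 at 0.32 ± 0.37 (adjusted p = 0.512). For these 4 the groups overlapped. With no filter on low genes 2 of the 13 passed, and with quantile normalization 1 passed and the median was -0.033. For these 2 settings the share of all genes that passed is not given here. Whether NEC moved the genes less in CKO than in flox is the interaction given above, in which none of the 13 passed.

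Both rRNAs fell with NEC in both genotypes, where 23.0% of all genes tested fell in CKO and 26.5% in flox mice. In each genotype their differences were larger than that of the median messenger. mt-Rnr1 had 243, 212 and 318 rescaled FPKM in CKO NEC against 726, 903 and 1205 in CKO control (-1.86 ± 0.30, limma adjusted p = 0.000698). In flox it had 209, 174 and 177 rescaled FPKM with NEC against 1838, 1133 and 2684 in control (-3.25 ± 0.30, limma adjusted p = 1.32e-05). mt-Rnr2 had 452, 319 and 456 rescaled FPKM in CKO NEC against 1008, 1461 and 1882 in CKO control (-1.80 ± 0.35, limma adjusted p = 0.00211). Its flox values were 544, 310 and 392 rescaled FPKM with NEC against 2878, 1624 and 4064 in control (-2.72 ± 0.35, limma adjusted p = 9.23e-05). No NEC library reached the lowest control library of its genotype for either rRNA. Of all genes tested, 27.3% in CKO and 30.9% in flox mice were lower in NEC without overlap.

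Within the mitochondrial reads, the shares of the abundant messengers varied less between libraries than those of the others. Over the 12 libraries mt-Cytb held 12.6% to 14.4% of protein-coding mitochondrial reads and mt-Nd5 8.38% to 10.7%, while mt-Atp6 held 0.368% to 1.32%, mt-Co3 0.334% to 1.07%, mt-Nd3 0.0361% to 0.0966% and mt-Nd4l 0.0185% to 0.0622%. Counted among protein-coding mitochondrial reads, mt-Co1 held 45.0% ± 1.58 in CKO NEC, 44.8% ± 1.59 in flox NEC, 45.1% ± 2.43 in CKO control and 45.3% ± 0.533 in flox control (SD, n = 3 each). mt-Nd1 held 16.9% ± 1.096 in CKO NEC, 16.3% ± 0.320 in flox NEC, 13.5% ± 1.56 in CKO control and 13.3% ± 0.748 in flox control, and all 6 NEC libraries (15.97% or more) lay above all 6 control libraries (15.3% or less). mt-Co2 showed the opposite order, with 0.654% ± 0.0639 in CKO NEC, 0.600% ± 0.0700 in flox NEC, 0.831% ± 0.0810 in CKO control and 1.03% ± 0.178 in flox control, again with no overlap between NEC and control libraries. The rRNAs held 2.36% to 2.50% of all mitochondrial reads in CKO NEC, 1.92% to 2.74% in flox NEC, 3.44% to 6.84% in CKO control and 3.29% to 6.11% in flox control. These shares are descriptions with no test.

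**Figure D3:**
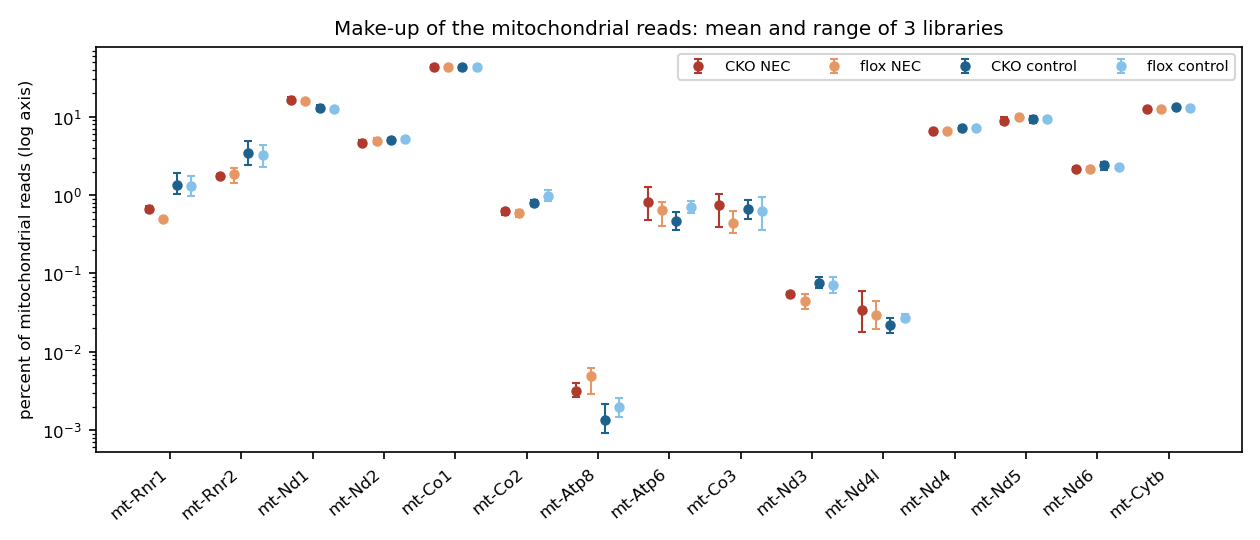
Percent of all mitochondrial reads that fell on each messenger and rRNA, on a log axis, for CKO NEC, flox NEC, CKO control and flox control, as means with the range of 3 libraries. mt-Co1 takes 43% to 44% in all 4 groups, mt-Nd1 takes more in the NEC groups and the rRNAs take less.

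The order of the messengers by FPKM was nearly fixed. mt-Co1 had the highest level of the 13, then mt-Nd1, then mt-Cytb, in all 12 libraries, and mt-Atp8 ranked 13th in all of them. mt-Nd2, mt-Nd4, mt-Nd5 and mt-Nd6 held ranks 4 to 7, mt-Co2, mt-Atp6 and mt-Co3 ranks 8 to 10, and mt-Nd3 and mt-Nd4l ranks 11 and 12. Mitochondrial genes made up 7 to 11 of the 20 genes with the highest FPKM in a library, 7 to 8 in CKO NEC, 7 in each flox NEC library, 7 to 8 in CKO control and 9 to 11 in flox control.

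The tRNA genes, which supply the anticodons for translation inside the mitochondrion, were read unevenly. Of the 22, mt-Tf and mt-Td had 0 reads in every library, a count that allows up to 3 reads per library, 11 had reads in all 12 libraries and 9 in some. Of the 22, 12 stayed under 20 reads in every library. mt-Tp held 61.3% of all tRNA reads and mt-Tc 11.8%, and the 8 tRNA genes on the minus strand together held 82.1%. mt-Tp had 1181, 764 and 928 reads in CKO NEC, 761, 691 and 885 in flox NEC, 1492, 1498 and 1659 in CKO control, and 4037, 2666 and 4406 in flox control. Its neighbour mt-Tt, whose sequence is given above beside it, had 1 to 13 reads per library. The labels do not say whether counting used strand, so reads from the opposite strand cannot be told apart from tRNA reads. The same holds for mt-Nd6, the only messenger on the minus strand, which overlaps mt-Nd5 by 14 bases.

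**Figure D4:**
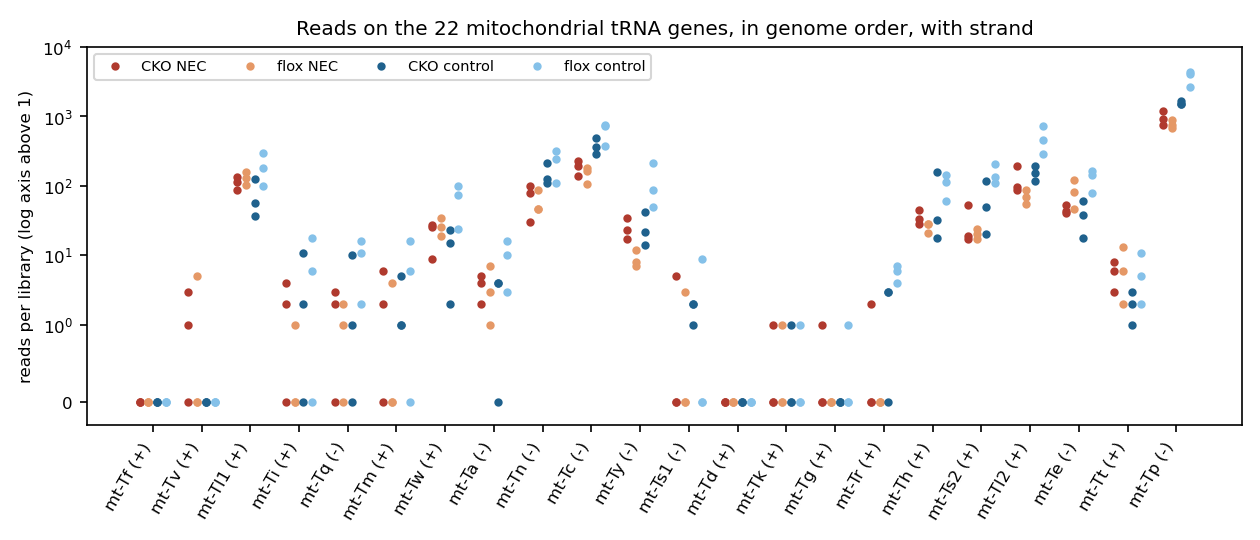
Reads per library on each of the 22 tRNA genes in genome order, with the strand in brackets, for CKO NEC, flox NEC, CKO control and flox control, with a point per library and an axis that is logarithmic above 1 read. mt-Tp is the highest in every library and 12 of the 22 stay under 20 reads.

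In control, mt-Tp had a fitted difference of -1.21 ± 0.24 between CKO and flox (limma adjusted p = 0.0564), with no overlap between the groups. Of the 17 tRNA genes tested there 0 passed by limma and 8 had an unadjusted p under 0.05, where 28.9% of all genes tested did, and the adjusted p of mt-Tl2 was 0.0621 and that of mt-Te 0.0736. In NEC, 0 of 16 tested passed and 2 had an unadjusted p under 0.05 (4.38% of all genes tested). These 2 were mt-Ty (1.20 ± 0.25, limma adjusted p = 0.840) and mt-Te (-0.88 ± 0.33, same adjusted p). Between genotypes 0.00752% of all genes tested passed in control and 0.0% in NEC. With NEC in flox mice, 9 of 17 tested fell: mt-Tq, mt-Tn, mt-Tc, mt-Ty, mt-Tr, mt-Th, mt-Ts2, mt-Tl2 and mt-Tp, where 26.5% of all genes tested fell. The differences were -2.30 ± 0.23 for mt-Tp (limma adjusted p = 2.00e-05), -2.78 ± 0.34 for mt-Tl2 and -3.41 ± 0.49 for mt-Ty. The call for mt-Tr rests on 0 reads in all 3 flox NEC libraries and 6, 4 and 7 reads in flox control. That for mt-Tq rests on 0, 2 and 1 reads in flox NEC and 16, 2 and 11 reads in flox control. With NEC in CKO mice 3 of 17 fell, where 23.0% of all genes tested did, with differences of -0.95 ± 0.23 for mt-Tp (limma adjusted p = 0.00686), -1.25 ± 0.33 for mt-Tc and -1.44 ± 0.49 for mt-Tn. A gene that passes the filter only through the group where it is high had to differ, so these counts describe single genes and not the tRNAs as a class.

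Several mitochondrial genes share their sequence with nuclear gene models, stretches of mitochondrial DNA copied into the nuclear genome, and reads from either place could be counted to the other. A run of 7 such models lies on chromosome 1 between 24611535 and 24616197 on the minus strand. Of the 50-base stretches of mt-Co2, 100% also occur in a transcript of another gene, of mt-Co3 99.9%, of mt-Atp6 99.5%, of mt-Nd4l 98.8% and of mt-Nd3 97.99%. For mt-Nd4 it was 62.2%, for mt-Co1 51.1%, for mt-Nd2 8.19%, for mt-Nd5 7.61%, and none for mt-Nd1, mt-Nd6, mt-Cytb and mt-Atp8. The last 43 bases of mt-Atp8, shared with mt-Atp6, also lie in Gm10925, the mt-Atp6 copy, but are too short for this count. mt-Atp8 lies between mt-Co2 and mt-Atp6, and the bases between their copies on chromosome 1 were not searched. The copy of mt-Co2, Gm28661, matches it over all 681 aligned bases, and the copy of mt-Nd3, Gm28438, differs at a single base of 345 (T3C, counted from the 5′ end of mt-Nd3), as printed above.

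The 5 genes with over 90% shared sequence had mean FPKM of 65.0 to 857 over the 4 groups, and the 4 genes with part of it shared had 3431 to 19630 FPKM. Of the 4 with none, mt-Nd1, mt-Cytb and mt-Nd6 had 3098 to 10060 FPKM and mt-Atp8 had 8.42 FPKM. Of the reads on gene and copy together, the copy held a median over libraries of 36.3% for mt-Co2, 39.9% for mt-Atp6, 41.1% for mt-Co3, 56.8% for mt-Nd3 and 63.0% for mt-Nd4l. For mt-Nd4 it held 2.21% and for mt-Co1 0.883%. Gm28438 had 820, 379 and 451 reads in CKO NEC, 366, 375 and 403 in flox NEC, 715, 868 and 811 in CKO control, and 2148, 1883 and 1815 in flox control. Over the 12 libraries it held 48.7% to 67.0% of the reads on mt-Nd3 and itself. The levels of mt-Co2, mt-Atp6, mt-Co3, mt-Nd3 and mt-Nd4l are therefore uncertain by how the counting treated reads with several matches, a step the labels do not describe. The same step may also bear on the 4 genes with part of their sequence shared, among them mt-Co1 and mt-Nd4, and on mt-Atp8.

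**Figure D5:**
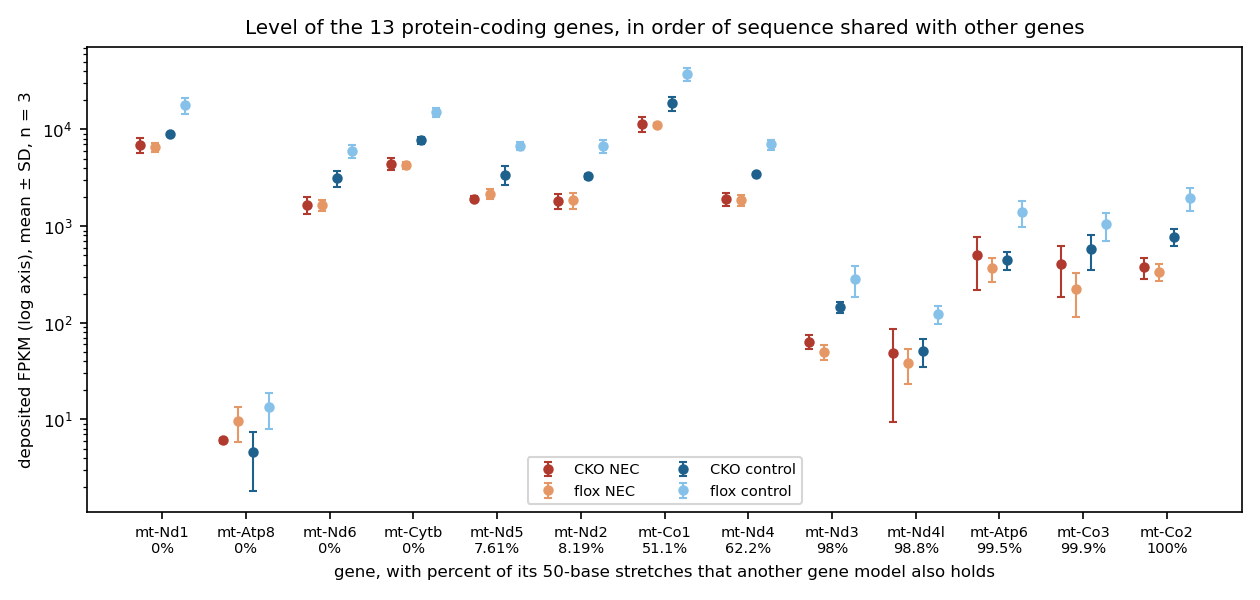
Deposited FPKM of the 13 protein-coding genes, mean and SD of 3 libraries per group on a log axis, in order of the percent of their 50-base stretches that occur in a transcript of another gene. The 5 genes at over 90% lie below the others apart from mt-Atp8, which is the lowest. It has no shared 50-base stretch, but its last 43 bases also lie in the copy of mt-Atp6.

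Group differences are given by shared sequence as a description. In control, the fitted difference of CKO against flox had a median of -0.97 over the 4 genes with no shared sequence, -1.01 over the 4 with part shared and -1.28 over the 5 with over 90% shared. For NEC against control in flox the medians were -1.78 over the 4 with none, -1.96 over those with part and -2.42 over those with over 90%. For NEC against control in CKO they were -0.74 over those with none, -0.98 over those with part and -0.77 over those with over 90%, and for CKO against flox in NEC 0.02 over those with none, -0.01 over those with part and 0.32 over those with over 90%. The 11 nuclear gene models of mitochondrial sequence included 6 that fell with NEC in CKO mice and 9 in flox mice, with medians of -0.88 in CKO and -2.12 in flox mice, where 23.0% of all genes tested fell in CKO and 26.5% in flox mice. Between genotypes 0 of 11 passed in control by limma (median -1.16) and 0 in NEC (median 0.07). Of all genes tested, 0.00752% passed in control and 0.0% in NEC. With the reads of each gene and its chromosome 1 copy summed, a setting added after the data were seen, mt-Nd3 passed in the difference between genotype effects (1.44 ± 0.28, limma adjusted p = 0.0441), against 0.0842 for mt-Nd3 alone.

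The nuclear genes that supply the rest of the respiratory complexes were also tested. Of 77 nuclear subunit genes, 0 passed between genotypes by limma in control (median -0.24) or in NEC (median 0.16). Of all genes tested, 1 of 13300 passed in control (0.00752%) and 0 of 13673 in NEC (0.0%). In the difference between the 2 genotype effects 0 of the 77 passed (median 0.41), where 1.22% of all genes tested did. In control the complex I genes Ndufb6 and Ndufs8 stood at -0.56 ± 0.13 and -0.51 ± 0.13 (limma adjusted p = 0.0677 and 0.0684), and 32 of the 36 complex I genes were below 0. With NEC in flox mice 48 of the 77 fell and 5 rose, with a median of -0.73, where 26.5% of all genes tested fell and 27.2% rose. Ndufa13, an accessory subunit of complex I (-1.61 ± 0.16), Uqcrq, a small subunit of complex III (-1.64 ± 0.21), Cox5b, of complex IV (-0.91 ± 0.16), and Atpif1, the inhibitor of the ATP synthase (-1.17 ± 0.15), were among those that fell. With NEC in CKO mice 19 of the 77 fell and 2 rose, with a median of -0.19, and Ndufa13 was among those that fell (-0.90 ± 0.16). The share that fell in CKO mice was near the 23.0% of all genes tested. Reads on mitochondrial messengers stood at 3.31 ± 0.204 times those on the 77 nuclear genes in CKO NEC, 3.58 ± 0.408 times in flox NEC, 5.67 ± 1.15 times in CKO control and 10.9 ± 1.75 times in flox control (SD, n = 3 each). The nuclear subunits alone took 1.20% ± 0.165 of reads in CKO NEC, 1.104% ± 0.0226 in flox NEC, 1.019% ± 0.0564 in CKO control and 1.12% ± 0.0544 in flox control.

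Nuclear genes for making, cutting and modifying mitochondrial RNA are counted against all genes tested, of which 23.0% fell and 20.2% rose with NEC in CKO mice, and 26.5% fell and 27.2% rose in flox mice. Of 19 genes of mitochondrial DNA transcription and replication, 5 fell and 2 rose in CKO mice, and 6 fell and 1 rose in flox mice. Mterf2, of the mitochondrial transcription termination factor family, fell in both (-0.67 ± 0.15 in CKO and -1.27 ± 0.15 in flox mice), and Tfb2m, which opens the promoter for the mitochondrial RNA polymerase, rose by 0.69 ± 0.13 in CKO and by 0.92 ± 0.13 in flox mice. Of 21 genes of RNA processing and stability 20 were tested, of which 1 fell and 8 rose in CKO mice, and 2 fell and 7 rose in flox mice. Grsf1, an RNA-binding protein of mitochondrial RNA granules, rose by 0.69 ± 0.11 in CKO and by 0.95 ± 0.11 in flox mice, and Pde12, which removes poly(A) tails from mitochondrial RNA, rose by 0.48 ± 0.10 in CKO and by 0.86 ± 0.10 in flox mice. Of 20 genes of tRNA and rRNA modification, 4 fell and 2 rose in CKO mice, and 7 fell and 3 rose in flox mice. Nsun4, a methyltransferase of the mitochondrial small subunit rRNA, fell in both (-1.22 ± 0.20 in CKO and -1.37 ± 0.20 in flox mice).

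The same background, 23.0% falling and 20.2% rising in CKO mice and 26.5% falling and 27.2% rising in flox mice, holds for the next lists. Of 19 mitochondrial aminoacyl-tRNA synthetase genes, 2 fell and 8 rose in CKO mice, and 3 fell and 5 rose in flox mice, with Iars2, which charges the isoleucine tRNA, up by 0.78 ± 0.10 in CKO and by 1.00 ± 0.10 in flox mice. Of 14 regulators of mitochondrial biogenesis 13 were tested, of which 2 fell and 6 rose in CKO mice, and 2 fell and 7 rose in flox mice. Ppargc1b, a coactivator of mitochondrial genes, rose by 0.88 ± 0.15 in CKO and by 1.07 ± 0.15 in flox mice. Among 26 other nuclear-encoded mitochondrial proteins, 0 fell and 9 rose in CKO mice, and 3 fell and 9 rose in flox mice by limma. Hspd1, the matrix chaperonin, rose by 0.74 ± 0.20 in CKO and by 0.87 ± 0.20 in flox mice. Of 15 mitophagy and mitochondrial stress genes tested, 5 fell and 2 rose in CKO mice, and 6 fell and 3 rose in flox mice, with Ddit3, a stress-induced transcription factor, lower in both (-1.66 ± 0.25 in CKO and -2.16 ± 0.25 in flox mice). Between genotypes 0 members of these 7 lists passed in control or in NEC, where 1 of 13300 (0.00752%) and 0 of 13673 (0.0%) of all genes tested passed. In control the fitted differences of Hspa9, the matrix Hsp70, and Fastk, a regulator of mt-Nd6 RNA, were 0.60 ± 0.13 and -0.57 ± 0.13 (limma adjusted p = 0.0597 and 0.0640).

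Cell type markers were read beside these differences. In control, all 8 smooth muscle markers and all 8 fibroblast markers had lower fitted levels in CKO than in flox, with medians of -0.92 and -0.95 and 0 past the threshold by limma. The summed FPKM of the smooth muscle list was 290 to 947 in CKO control and 1112 to 1407 in flox control, and that of the fibroblast list 63.9 to 180 in CKO control and 169 to 313 in flox control. Of the 12 enterocyte markers 10 stood above 0 there, with summed FPKM of 19403 to 28495 in CKO control and 21011 to 25261 in flox control. In NEC, all 8 smooth muscle and all 8 fibroblast markers again stood below 0 in CKO against flox (medians -0.83 and -0.47). Other lists did so too: all 8 Paneth cell (median -0.78), all 8 macrophage and monocyte (-0.27) and all 8 endothelium markers (-0.16), 7 of 8 goblet cell markers (-0.53) and 6 of 7 neuron and glia markers (-0.43). In control 7 of 8 neuron and glia markers (-0.76) and 6 of 7 endothelium markers (-0.25) stood below 0. The counts with NEC that follow stand beside 23.0% of all genes tested falling and 20.2% rising in CKO mice, and 26.5% falling and 27.2% rising in flox mice. With NEC, 5 of 12 enterocyte markers fell in CKO mice with none rising by limma, and 5 fell and 2 rose in flox mice. The summed rescaled FPKM of that list was 9443 to 13080 in CKO NEC and 19497 to 28724 in CKO control, and 7414 to 11400 in flox NEC and 21129 to 25436 in flox control. In CKO and in flox mice alike 7 of 8 markers of dividing cells rose with NEC, and fibroblast markers rose for 8 of 8 in CKO and 6 of 8 in flox mice. Among other lists, with NEC 4 goblet and 4 Paneth cell markers of 8 each rose in CKO mice and 6 of each in flox mice, and 7 of 8 endothelium markers rose in CKO and 4 in flox mice. Of 8 smooth muscle markers 2 rose in each genotype and 1 fell in flox mice. Of 8 macrophage and monocyte markers 4 fell in CKO mice, and 3 fell and 1 rose in flox mice. Of 4 T and B lymphocyte markers tested 3 fell in CKO and 2 in flox mice, and of 8 neuron and glia markers 1 fell in each. Of 8 enteroendocrine markers 2 fell and 1 rose in CKO mice and 2 fell and 2 rose in flox mice. Of 5 erythroid markers tested 1 rose in flox mice. Between genotypes no marker of any of these lists passed by limma in control or in NEC. Of all genes tested, 1 of 13300 passed in control (0.00752%) and 0 of 13673 in NEC (0.0%), so this count does not set the markers apart. None of the enterocyte, smooth muscle and fibroblast markers was at 0 in a whole group.

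RNAs made without a poly(A) tail or kept in the nucleus were listed as well. Of 16 listed, 7 were tested, of which 4 fell in CKO mice and 5 in flox mice with NEC, where 23.0% of all genes tested fell in CKO and 26.5% in flox mice, and 4 to 6 of the 16 were at 0 in every library of a group. Malat1, a nuclear long noncoding RNA, fell in both (-0.71 ± 0.18 in CKO and -1.07 ± 0.18 in flox mice). The part of cell make-up and of RNA selection in the mitochondrial differences was not tested.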

How the data were processed

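RNA was isolated with Trizol and libraries were made with an NEBNext Ultra II kit, per the labels. The authors deposited FPKM for 12 libraries in 2 tables, 1 per condition, with gene coordinates and gene lengths. The aligner, the counter and its handling of strand and of reads with several matches, and the genome build are not stated in the labels. GENCODE M21, on GRCm38, gave the same coordinates for 53499 genes, 98.3% of those it shared with the tables. Whole reads were recovered for 100% of values within a tolerance of 0.05. Genes reaching FPKM 1 in 3 or more of the libraries fitted were tested on log2(FPKM + 1) with limma 3.58.1 (trend) in R 4.3.3, with Benjamini-Hochberg adjustment over all genes tested, at 0.05. Each genotype comparison used its 6 libraries. NEC against control and the difference between genotype effects used all 12 libraries, with rescaled FPKM (median-of-ratios size factors) for NEC against control and deposited FPKM for the difference. Fold changes of low genes are understated on this scale. Shares of reads were compared by exact permutation tests. Sequence sharing was counted as 50-base stretches found in a GENCODE M21 transcript of another gene, on either strand, and the genome outside transcripts was not searched. Other work used Python 3.11.15, numpy 2.4.6, pandas 2.3.3, scipy 1.17.1 and matplotlib 3.10.9. The scripts were tested on simulated data.

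The members and the gene lists were chosen with earlier results of these data known. All mitochondrial messengers and rRNAs are named, tRNAs where they passed the filter, and of each list up to 3 genes with the smallest p past the threshold, or values of at most 2 where none passed. All symbols of the 26 gene lists matched the tables except Mrpp3. Alternatives covered the pseudocount, filter, normalization, model, the replicate number as a block and leaving out each library.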

Additional observations from a re-analysis of the deposited data

Results flagged for a closer look

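The genotype effect differed between conditions for reads counted to Gm28438, the chromosome 1 copy of mt-Nd3. The 2 differ at 1 of 345 aligned bases, so reads of either could be counted to the other. The difference for Gm28438, CKO against flox in NEC less CKO against flox in control, was 1.56 on the log2(FPKM + 1) scale. It passed the threshold by limma's interaction term, as did 1.22% of all genes tested. The read numbers of Gm28438 are given beside mt-Nd3 in the report.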

How the results depend on the processing

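Same-numbered CKO and flox libraries deviated with correlations of 0.138, -0.0301 and 0.366 in control and 0.182, -0.136 and 0.0933 in NEC. Libraries with different numbers gave -0.322 to 0.277 in control and -0.288 to 0.213 in NEC. Whether the numbers pair the libraries cannot be told from so few values. With a replicate block 6 of the 13 protein-coding genes passed between genotypes in control (0 without it), and no other count moved. That control count was 10 with a mean FPKM of at least 5, 10 with limma-voom, 11 with all 4 groups in 1 fit and 0 to 2 with each library left out. The count for the difference between genotype effects was 5 with a mean FPKM of at least 5 and 1 with the reads of gene and copy summed. For NEC against control in CKO mice it was 2 with no filter, 1 with quantile normalization and 7 to 9 with each library left out. In flox mice it was 5 with quantile normalization. All these counts stand without the share of all genes that passed in the same setting, which is not given here.

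Quantile normalization gives each rank the same value in every library by its construction, and mt-Co1 held ranks 1 to 3 among all genes in the 12 libraries. Under it the medians of the 13 were -0.59 between genotypes in control, -0.033 for NEC in CKO and -0.34 for NEC in flox mice. It reversed mt-Co2 (-0.0065) and mt-Nd4 (-0.051) between genotypes in NEC, mt-Nd6 in the difference of effects (-0.046), mt-Nd5 for NEC in flox (0.15), and for NEC in CKO mt-Nd1 (0.52), mt-Atp6 (0.48), mt-Nd5 (0.20) and mt-Cytb (0.40). For NEC in CKO, scaling to non-mitochondrial reads gave a median of -0.65 and mt-Atp6 0.16. mt-Atp6 was 0.0087 on deposited FPKM and -0.55 to 0.32 with each library left out. The cause was not tested.

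Between genotypes in NEC, leaving out each library gave ranges across 0: mt-Nd1 -0.017 to 0.23, mt-Nd2 -0.13 to 0.11, mt-Co1 -0.093 to 0.16, mt-Atp6 -0.092 to 0.78, mt-Nd4 -0.089 to 0.13, mt-Nd6 -0.15 to 0.15, mt-Cytb -0.025 to 0.16, mt-Nd4l -0.48 to 0.44 and mt-Rnr2 -0.21 to 0.20. As a percent of summed FPKM, the mitochondrial share differed by -11.4 points for CKO less flox in control, -3.26 for NEC less control in CKO and -14.3 in flox. With protein-coding mitochondrial reads as the whole, mt-Nd1 held 16.3% in flox NEC and 13.3% in flox control, and mt-Co1 45.25% in flox control. For genes with few reads, such as mt-Atp8 and most tRNAs, the differences are imprecise, and why they had few reads was not tested. mt-Atp8 shares 43 bases with mt-Atp6, and mt-Nd4l shares 7 with mt-Nd4. How reads on these bases were counted is not stated in the labels, so the levels of these overlapping genes are uncertain.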
